A study of Mus musculus with 10 samples.

Results

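The transcripts described are those of the mouse mitochondrial genome. Members were the genes of the count table whose Ensembl ID maps to a symbol beginning with mt- in GENCODE mouse release M21. The annotation lists 37 such genes, of which 13 are protein-coding, 2 are ribosomal and 22 are transfer RNA genes. The count table used here held the 13 protein-coding genes, out of 26040 genes in all, and each of the 13 had enough counts to be tested. Ribosomal and transfer RNA genes of the mitochondrion were not analysed here.

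The mitochondrial genome is a small circular chromosome that encodes core subunits of the respiratory chain and ATP synthase together with the ribosomal and transfer RNAs needed to translate them. Both of its strands are copied as long transcripts, which are cut at the transfer RNAs into separate messages, so neighbouring genes start out on the same RNA. In white adipocytes the respiratory chain oxidises substrates for ATP, and succinate, the ligand of the receptor deleted here, is the substrate of its complex II, whose subunits are all encoded in the nucleus.

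Total RNA was sequenced from epididymal white adipose tissue, the visceral fat pad beside the epididymis in males. Of the 10 libraries, 5 came from C57BL/6 mice with an adipocyte-specific deletion of Sucnr1, labelled Ad-Sucnr1 KO, and form the knockout group; the other 5 came from C57BL/6 mice with floxed alleles, labelled Sucnr1fl/fl, and form the control group. The labels give no age, diet or time of collection and do not name the Cre line, and each library is called here by the number in its title, 2 to 6 in each group. The design gives 5 mice per group, and the tests measure the spread between these libraries.

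Total counts ranged from 24182798 to 30603326 per library. Sucnr1, the targeted gene, stood at 2.05 to 4.67 CPM (counts relative to the TMM-scaled library size) in the knockout libraries and at 38.01 to 75.9 CPM in the controls. All 20 adipocyte markers were present in every library, with summed levels of 35820 to 73470 CPM in the controls and 56570 to 78130 CPM in the knockouts. Control libraries 3 and 6 had the lowest adipocyte sums. RNA of neighbouring organs was also present: 10 epididymal markers summed to 13840 CPM in control 6, 5185 CPM in knockout 3 and 2716 CPM in control 3, against 2.16 to 1578 CPM in the other libraries. In control 3, Crisp1 alone made up 2715 of the 2716 CPM. The 8 smooth muscle and vas deferens markers summed to 7851 CPM in control 3, and 8 hepatocyte markers to 8800 CPM in knockout 6. In bulk tissue, fewer cells of a type and less RNA per cell cannot be told apart.

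Where members share bases, a read in the shared stretch can be counted for either gene, for both or for neither, and the counting rule is not given in the sources used here. Of 4 overlaps between protein-coding members, the 3 longest are shown, and they include those of the smallest members. The fourth is the single base 8607, shared by mt-Atp6 and mt-Co3. Each sequence is the 3′ end of the upstream gene in mm10, on the plus strand of chromosome M and from the GENCODE transcript, with the bases shared with the next gene in capitals.
mt-Atp8 into mt-Atp6: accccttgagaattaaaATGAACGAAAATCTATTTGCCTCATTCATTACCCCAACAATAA
mt-Nd4l into mt-Nd4: gtccaaaatctcaacctactacaATGCTAA
mt-Nd5 against mt-Nd6: attatcttatactcaaTTAATCTCGAGTAA

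The first overlap covers 43 bases (7927 to 7969) of the 204 bases of mt-Atp8, and the second covers 7 bases (10167 to 10173) of mt-Nd4l. Each opens with the start codon of the downstream gene and closes with the stop codon of the upstream gene, since both pairs are translated from a shared message in overlapping reading frames. The third covers 14 bases (13552 to 13565) where mt-Nd5 on the plus strand runs into mt-Nd6, the only protein-coding gene on the minus strand. The gene models of mt-Co3, mt-Nd4 and mt-Cytb each run 1 base past a whole number of codons and end in T. In mammals, polyadenylation completes such a stop codon.

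Copies of mitochondrial DNA in the nuclear genome can also take or lend reads. Only matches to genes with a row in the count table were kept. Nuclear copies without a row, which may be closer, are not covered, and their part in the members' counts was not tested. Of the genes in the count table, 4 matched a mitochondrial mRNA by blastn, with at most 81.7% identity. The longest match, between mt-Nd2 and the opposite strand of Cep295, had 553 aligned bases. Cep295 had a mean of 1081 counts per library, below every member's count. Within the count table, the closest nuclear relative of a mitochondrial ribosomal RNA was far more abundant. Gm20594 (ENSMUSG00000096887), a predicted protein-coding gene on the plus strand of chromosome 6, aligned to mt-Rnr2, the large ribosomal RNA, over 435 bases at 88.5% identity, and had a mean of 201316 counts per library. The stretch from its start codon is shown beside the matching bases of mt-Rnr2 because of how little separates them. Coordinates are in mm10 (chr6:79818251-79818347 and chrM:2070-2166, both plus strand), and differing bases are in capitals.
Gm20594: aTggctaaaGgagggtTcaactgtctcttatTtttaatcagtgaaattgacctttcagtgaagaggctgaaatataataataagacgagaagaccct
mt-Rnr2: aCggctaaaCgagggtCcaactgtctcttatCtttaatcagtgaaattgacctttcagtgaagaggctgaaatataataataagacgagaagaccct

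The 97 bases differed at 4 positions and held no gap. Whether the reads counted for Gm20594 arose from that gene or from mt-Rnr2 cannot be told apart in these counts. Gm20594 took 0.626% to 0.817% of all counts in the knockouts and 0.626% to 0.925% in the controls, with the highest value in control 6. Its log2 fold change was -0.02 (SE 0.14, edgeR adjusted p = 0.966).

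The share of all counts taken by the 13 mitochondrial mRNAs differed between the groups by less than the spread within either. The share was 3.997%, 4.32%, 3.70%, 3.05% and 3.62% in knockout libraries 2 to 6, and 3.33%, 3.93%, 3.63%, 2.99% and 4.26% in control libraries 2 to 6. The groups overlapped almost entirely, and the library numbered 5 was the lowest of each. Means were 3.74% ± 0.48 in the knockouts and 3.63% ± 0.50 in the controls (SD, n = 5 each), a difference of 0.109 percentage points, within the SD of either group. Relative to the TMM-scaled library size, which the CPM values use, the difference was 0.272 percentage points, also within those SDs. For the share of all counts, the difference turned negative without knockout 3 (-0.037) or control 5 (-0.050), and without control 3 and 6 it was 0.42. Exact 95% binomial intervals for single libraries were narrow, such as 4.26% to 4.27% in control 6, and cover counting error only.

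**Figure D1:**
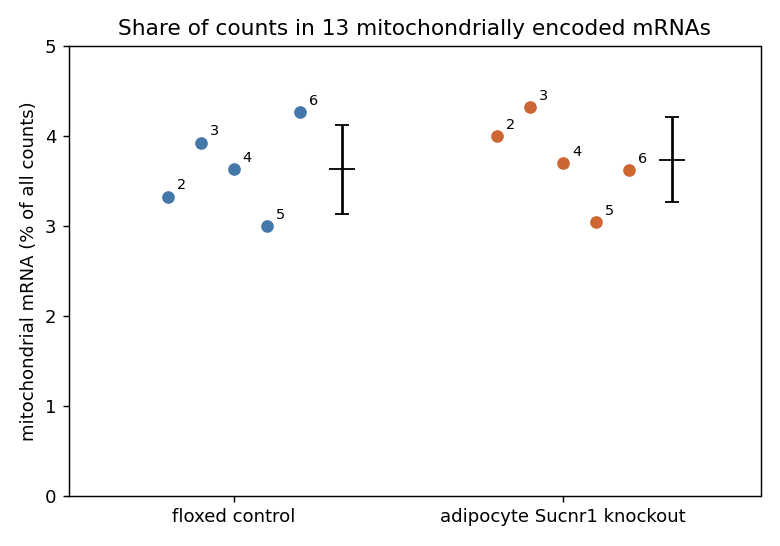
Share of all counts in the 13 mitochondrially encoded mRNAs, in percent, for each library (points, numbered as in the titles) of the control and knockout groups, with the group mean and SD at the right of each. The values run from 2.99% to 4.26% in controls and from 3.05% to 4.32% in knockouts, and library 5 is the lowest in both groups.

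The highest share of each group fell in the library with the most epididymal RNA and the fewest adipocyte counts of that group. Knockout 3 had 4.32% with 5185 CPM of epididymal and 56570 CPM of adipocyte markers, and control 6 had 4.26% with 13840 and 35820 CPM. The part of these tissues in the share was not tested. Knockout 5 was the lowest knockout library for 12 of the 13 members, and control 5 the lowest control library for 8. Control 6 was the highest control library for 8 members and not for the other 5.

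Per kilobase of gene, the subunits of complex IV (cytochrome c oxidase, which passes electrons to oxygen) stood highest. Over 10 libraries, mt-Co1, which encodes the catalytic subunit, had 10340 ± 1199 CPM per kilobase (SD, n = 10), mt-Co3 had 7267 ± 1170 and mt-Co2 had 5201 ± 803. In plain CPM, mt-Co1 was the second most abundant of the 16446 genes tested. Then came mt-Atp6, the proton channel subunit of ATP synthase, with 3829 ± 544 CPM per kilobase, and mt-Cytb, the cytochrome b of complex III, with 2220 ± 315.

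Subunits of complex I, which takes electrons from NADH, followed in the order mt-Nd1 (1686 CPM per kilobase), mt-Nd4 (1317), mt-Nd3 (1119), mt-Nd5 (840), mt-Nd2 (693), mt-Nd6 (428) and mt-Nd4l (309). mt-Atp8, the small accessory subunit of ATP synthase, had 471 CPM per kilobase, between mt-Nd2 and mt-Nd6. Most neighbours in this order kept it in 10 of 10 libraries. The exceptions were mt-Nd4 over mt-Nd3 in 8, mt-Nd5 over mt-Nd2 in 9 and mt-Atp8 over mt-Nd6 in 7, and the mean levels of those pairs differed by less than the SD of the higher gene. The highest level was 33.5 times the lowest, and the lowest belonged to mt-Nd4l, which shares its message with mt-Nd4. mt-Atp8 likewise stood far below mt-Atp6 on the same message. Both short genes overlap their partner in the sequences above, and the part of the counting in their low levels was not tested.

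**Figure D2:**
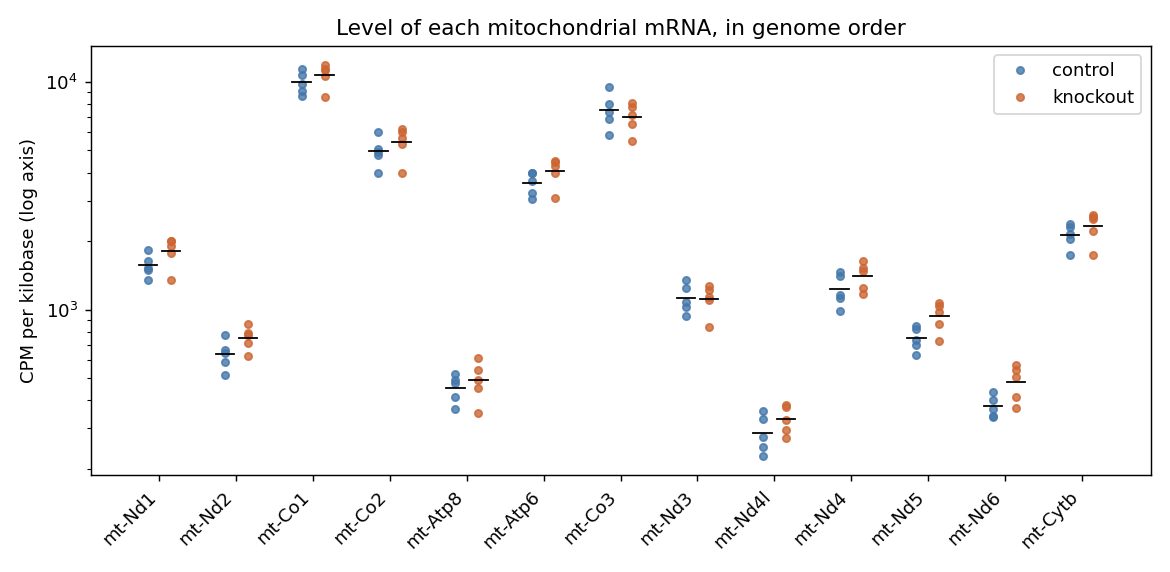
Level of each mitochondrial mRNA in CPM per kilobase of gene length (log axis) for every library, with genes in the order of the mitochondrial genome; points are libraries and bars are group means. Levels span from 309 for mt-Nd4l to 10340 for mt-Co1, and control and knockout points overlap for every gene.

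Between the groups, no mitochondrial mRNA passed the test across all genes. In knockouts 11 of the 13 were higher and 2 lower, where 44.8% of the 16446 genes tested were higher. The median log2 fold change was 0.18 over the members and -0.026 over all genes tested. None had an edgeR quasi-likelihood adjusted p below 0.05, against 0.0608% of all genes (10 genes), and none was called by DESeq2 or limma-voom. At an unadjusted p below 0.05 there were 2, mt-Nd5 and mt-Nd6, where 10.1% of all genes met that level. No member separated the groups without overlap in CPM, which 1.91% of all genes did. The adipocyte markers leaned the same way, with 19 of 20 higher and a median of 0.376. Several other lists leaned lower, with 0 of 10 endothelial genes higher (median -0.273), 1 of 10 macrophage genes (-0.201) and 3 of 10 fibroblast and progenitor genes (-0.138). So did smooth muscle and vas deferens genes (0 of 8, -2.16), all 8 with an unadjusted edgeR p below 0.05. Epididymal (0 of 4 tested, -1.42) and skeletal muscle genes (1 of 4 tested, -0.254) leaned lower too. Hepatocyte genes (8 of 8, 4.49) and germ cell genes (6 of 7, 1.09) leaned higher. No gene of these lists passed over all genes. The part of these cell types in the members' lean was not tested. With the adipocyte marker score in the model, the members' median was 0.238, and 13 of 13 were higher. The markers in this score themselves leaned higher in the knockouts, so that fit cannot tell adipocyte content and the deletion apart.

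**Figure D3:**
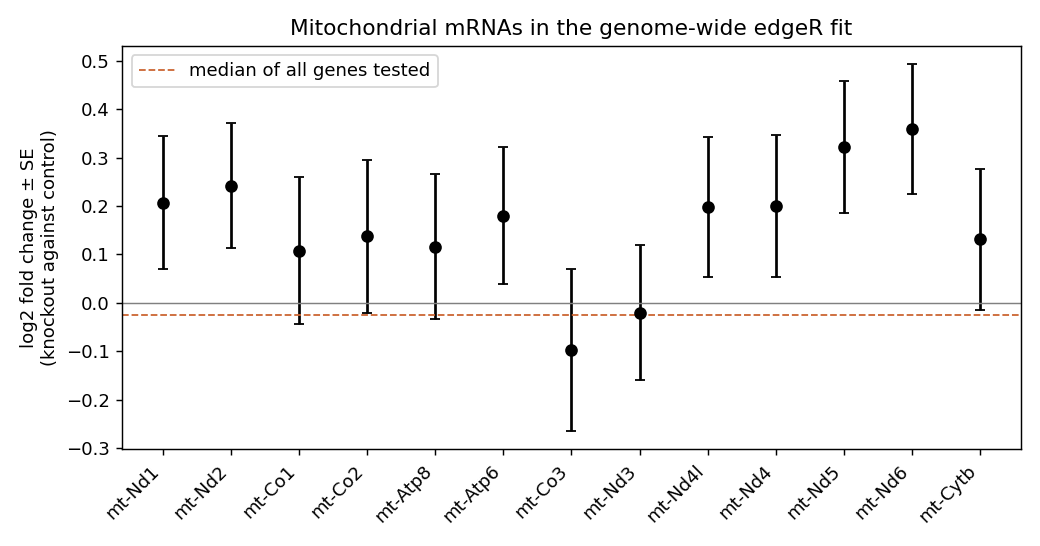
Log2 fold change of knockout against control for each mitochondrial mRNA (points) with its standard error (bars) from the genome-wide edgeR fit; the dashed line is the median of all 16446 genes tested (-0.026). The values run from -0.10 for mt-Co3 to 0.36 for mt-Nd6, and no gene had an adjusted p below 0.05.

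mt-Nd6, a membrane subunit of complex I and the only minus-strand message, had the largest fold change of the members. The gene (ENSMUSG00000064368) spans 13552 to 14070 of chromosome M in mm10. It stood at 282, 263, 297, 192 and 214 CPM in knockout libraries 2 to 6, and at 175, 208, 224, 189 and 177 CPM in control libraries 2 to 6. Knockouts 2, 3 and 4 lay above every control, and knockouts 5 and 6 lay inside the control range. The means were 249.6 ± 44.97 and 194.6 ± 21.3 CPM (SD, n = 5 each). The log2 fold change was 0.36 (SE 0.13, edgeR adjusted p = 0.444).

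mt-Nd5, another membrane subunit of complex I and the neighbour of mt-Nd6, came next. It (ENSMUSG00000064367) spans 11742 to 13565 on the plus strand. Its values were 1892, 1770, 1944, 1325 and 1583 CPM in knockouts 2 to 6 and 1153, 1500, 1548, 1336 and 1272 CPM in controls 2 to 6. All knockouts but number 5 exceeded every control. The log2 fold change was 0.32 (SE 0.14, edgeR adjusted p = 0.487).

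These neighbours lie on opposite strands and moved together across libraries. Their log2 CPM had a Pearson correlation of 0.978 over the 10 libraries, the highest of the 78 pairs of members, given as a description since members share libraries and scaling. The log2 ratio of mt-Nd6 to mt-Nd5 counts stayed between -2.89 and -2.71 in every library. The sources used here do not say whether the counts used strand, and reads from the strand opposite mt-Nd6 may be among its counts. The other members of complex I apart from mt-Nd3 had smaller fold changes. mt-Nd1, mt-Nd2, mt-Nd4l and mt-Nd4 had log2 fold changes of 0.21, 0.24, 0.20 and 0.20, with edgeR adjusted p of 0.540 to 0.649.

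mt-Co3, the third core subunit of complex IV, and mt-Nd3, a small complex I subunit next to it, were the members with a negative fold change. mt-Co3 (ENSMUSG00000064358) spans 8607 to 9390 and mt-Nd3 (ENSMUSG00000064360) spans 9459 to 9806, both on the plus strand, with the gene of a glycine transfer RNA between them. mt-Co3 stood at 6067, 6350, 5136, 4333 and 5638 CPM in knockouts 2 to 6, and at 5381, 6258, 5760, 4576 and 7472 CPM in controls 2 to 6. Control 6 alone exceeded every knockout. The log2 fold change was -0.10 (SE 0.17, edgeR adjusted p = 0.839), and it turned positive without control libraries 3 and 6 (0.065) or with the adipocyte marker score (0.12). mt-Nd3 had a log2 fold change of -0.02 (SE 0.14, edgeR adjusted p = 0.966).

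The other members of complexes III, IV and V had small positive values. mt-Atp6 had a log2 fold change of 0.18, mt-Co2 0.14, mt-Cytb 0.13, mt-Atp8 0.12 and mt-Co1 0.11, with edgeR adjusted p of 0.668 to 0.801. mt-Co1 ranged from 13220 to 18260 CPM in the knockouts and from 13450 to 17570 CPM in the controls. Standard errors of the 13 members lay between 0.13 and 0.17 on the log2 scale.

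The make-up of the mitochondrial mRNA pool does not depend on library scaling, and within it mt-Co3 took a smaller part in every knockout library. Its share of all mitochondrial mRNA counts was 14.6%, 15.02%, 12.9%, 14.5% and 15.03% in knockouts 2 to 6, and 16.6%, 17.2%, 15.3%, 15.1% and 18.4% in controls 2 to 6. The groups did not overlap, but the gap was thin. Exact 95% binomial intervals of the nearest libraries, 14.97% to 15.1% in knockout 6 and 15.04% to 15.19% in control 5, met. The means were 14.4% ± 0.9 and 16.5% ± 1.4 (SD, n = 5 each), a difference of -2.1 percentage points.

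The mt-Co3 difference was -1.25 without control libraries 3 and 6, which had the highest shares. mt-Co3 was the only member of the 13 whose shares did not overlap, and it was singled out after its values were seen. A background over all genes does not exist for shares of this pool. In CPM the groups overlapped for mt-Co3, whereas 1.91% of all genes tested had groups that did not overlap in CPM. Epididymal RNA was most abundant in control 6, where mt-Co3 was highest. Beside the shares above, the epididymal markers summed to 1578, 2716, 30.9, 162 and 13840 CPM in controls 2 to 6. In knockouts 2 to 6 they summed to 1318, 5185, 2.16, 224 and 36.8 CPM. Controls 2, 3 and 6 had higher sums and higher mt-Co3 shares than controls 4 and 5. Knockout 4 had the lowest sum and the lowest share of all libraries. Knockouts 3 and 6, far apart in these sums, had close shares of 15.02% and 15.03%, below every control. The part of this RNA in the difference was not tested. mt-Nd3 took 0.974% to 1.07% of the pool in the knockouts and 1.00% to 1.19% in the controls.

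**Figure D4:**
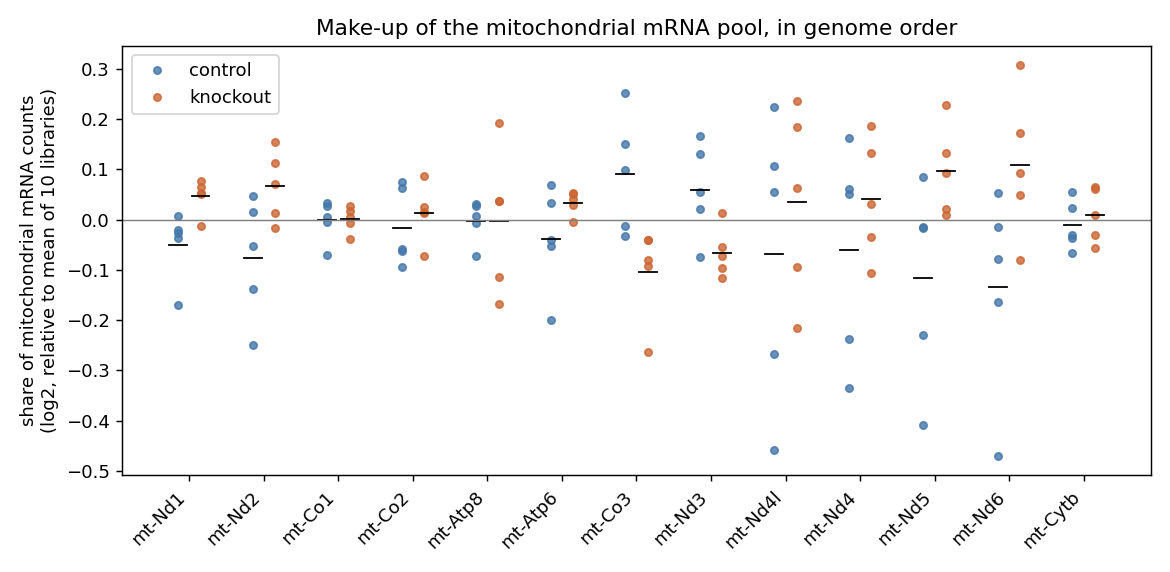
Share of each gene in the mitochondrial mRNA counts of a library, as log2 relative to its mean over the 10 libraries, in genome order; points are libraries and bars are group means. The mt-Co3 points of the groups are separate (12.9% to 15.03% of the pool in knockouts, 15.1% to 18.4% in controls), whereas those of the other 12 genes overlap.

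By complex, the 7 subunits of complex I made up 18.0% ± 0.8 of the pool in the knockouts and 16.6% ± 1.2 in the controls, and the 3 subunits of complex IV made up 67.6% ± 1.0 and 69.4% ± 1.6 (SD, n = 5 each). Both differences exceeded the SD of each group, and the ranges overlapped. Within complex IV only mt-Co3 had a lower mean share in the knockouts. mt-Co1 took 43.43% in the knockouts and 43.36% in the controls, and mt-Co2 took 9.715% and 9.527%. The parts add up to the whole pool, so differences between complexes are not independent. Complex V took 7.50% ± 0.13 and 7.16% ± 0.49, and complex III took 6.93% ± 0.26 and 6.83% ± 0.23. Control 6 had the lowest complex I part (15.1%) and knockout 4 the highest (19.1%). Those libraries also had the highest and the lowest epididymal marker sums, 13840 and 2.16 CPM. The order did not hold throughout: control 3, with 2716 CPM, had the highest complex I part of the controls (17.8%), and knockout 6, with 36.8 CPM, had a lower part (17.1%) than knockout 3 with 5185 CPM (17.5%). The part of epididymal RNA in these differences was not tested.

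Respiratory complexes are assembled from subunits of both genomes, and the nuclear-encoded partners are given beside the mitochondrial ones. Of 21 nuclear-encoded subunits tested, 20 had higher levels in knockouts (median log2 fold change 0.261), and none passed over all genes. The single values ran from -0.13 to 0.43, against -0.10 to 0.36 for the mitochondrial members, and the difference between these lists was not tested. Of all genes tested 44.8% were higher, and 19 of the 20 adipocyte markers were. Atp5b, the catalytic beta subunit of ATP synthase, stood at 1242 ± 211 CPM in the knockouts and 924 ± 160 in the controls (log2 fold change 0.43, SE 0.16, edgeR adjusted p = 0.446). Cyc1 (cytochrome c1), Uqcrc2 (a core subunit of complex III) and Cox5b had log2 fold changes of 0.38, 0.30 and 0.33, with edgeR adjusted p of 0.464 to 0.490.

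The mitochondrial and nuclear sums did not rank the libraries alike. Mitochondrial mRNA per nuclear partner count was 8.36, 10.05, 7.54, 8.51 and 7.84 in knockouts 2 to 6, and 8.09, 11.5, 8.87, 8.06 and 11.01 in controls 2 to 6. Control 3, control 6 and knockout 3 had the highest ratios, and the other 7 libraries lay between 7.54 and 8.87 whatever their group. Those 3 libraries had the highest epididymal marker sums, which in control 3 was nearly all Crisp1 (2715 of 2716 CPM). They also had the lowest adipocyte marker sums (41340, 35820 and 56570 CPM), and control 3 had the highest smooth muscle and vas deferens sum (7851 CPM). The part of these tissues in the ratio was not tested.

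**Figure D5:**
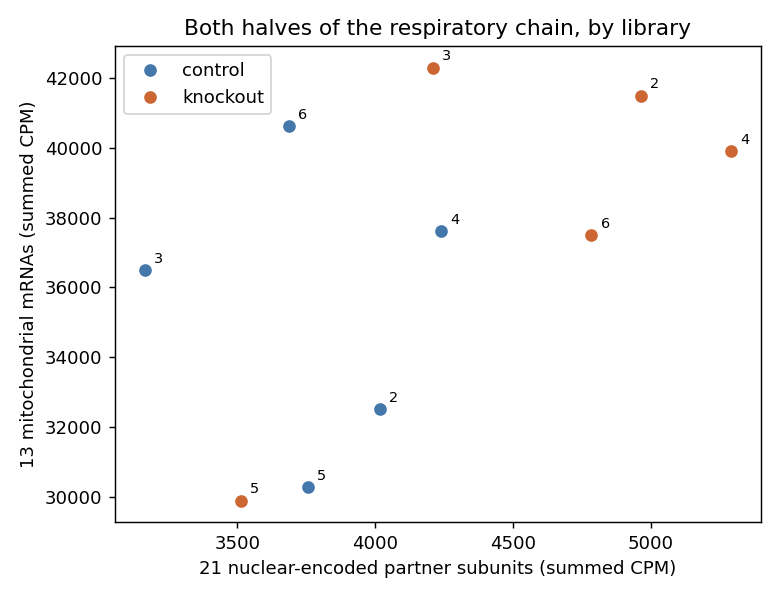
Summed CPM of the 13 mitochondrial mRNAs (vertical) against the summed CPM of 21 nuclear-encoded partner subunits (horizontal) for each library, numbered as in the titles; neither axis starts at 0. Control 3, control 6 and knockout 3 lie above the rest with 10.05 to 11.5 mitochondrial counts per nuclear count, and library 5 is low on the mitochondrial axis in both groups.

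Nuclear genes that copy and transcribe mitochondrial DNA differed little between the groups. Of 18 tested, 10 were higher and 8 lower, none passed, and the median log2 fold change was 0.064. Tfam, which packages mitochondrial DNA and opens its promoters, stood at 24.4 ± 1.7 CPM in the knockouts and 22.8 ± 0.7 in the controls (log2 fold change 0.10, SE 0.06, edgeR adjusted p = 0.597). Polrmt, the mitochondrial RNA polymerase, had a log2 fold change of 0.21 (SE 0.11, edgeR adjusted p = 0.547), and Tfb2m, its initiation factor, had 0.14 (adjusted p = 0.527). Mterf3, a repressor of this transcription in mouse, had -0.12 (adjusted p = 0.547).

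Of 19 tested genes of mitochondrial RNA processing and decay, 15 were higher and 4 lower (median log2 fold change 0.117), and none passed. Hsd17b10, a subunit of the RNase P that frees the transfer RNAs and also an enzyme of isoleucine breakdown, stood at 87.7, 80.5, 70.8, 44.1 and 84.3 CPM in knockouts 2 to 6 and at 42.9, 34.2, 65.8, 43.2 and 39.1 CPM in controls 2 to 6. Knockout 5 lay inside the control range. Its log2 fold change was 0.71 (SE 0.22, edgeR adjusted p = 0.4). Ptcd2, a mouse factor for the maturation of the mt-Cytb message, separated the groups, with 13.15 to 16.4 CPM in the knockouts and 11.2 to 12.2 CPM in the controls (log2 fold change 0.26, edgeR adjusted p = 0.4). Another gene of this list also separated them, with lower levels in the knockouts (log2 fold change -0.22, edgeR adjusted p = 0.451). Of all genes tested, 1.91% had groups that did not overlap. Grsf1, an RNA-granule protein that binds mitochondrial RNA, had a log2 fold change of 0.24 and Ptcd1, which acts on mitochondrial RNAs, had 0.21 (edgeR adjusted p = 0.436 for each). Lrpprc, which stabilises mitochondrial mRNAs, had 0.04 (adjusted p = 0.876).

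Enzymes that modify mitochondrial RNA (9 of 16 higher, median log2 fold change 0.015) and mitochondrial aminoacyl-tRNA synthetases (10 of 16 higher, median 0.046) had medians near that of all genes, and none passed. Among regulators of mitochondrial biogenesis, 5 of 9 tested genes were higher and none passed (median log2 fold change 0.019). Ppargc1b, a coactivator of mitochondrial genes, had the smallest p of these lists. It stood at 15.8, 19.3, 15.4, 19.6 and 18.9 CPM in knockouts 2 to 6 and at 11.2, 10.65, 11.9, 12.6 and 7.92 CPM in controls 2 to 6, so that the groups did not overlap. Its log2 fold change was 0.71 (SE 0.13, edgeR adjusted p = 0.221), and 1.91% of all genes tested also separated the groups.

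Ppargc1a, the related coactivator induced by cold and fasting, had a log2 fold change of 0.62 (SE 0.23, edgeR adjusted p = 0.436), and Esrra, a nuclear receptor that both coactivators work through, had 0.34 (SE 0.10, adjusted p = 0.4). Ppargc1a was 16.2 and 15.9 CPM in knockouts 2 and 3 and 7.81 to 10.97 CPM in the other knockouts, against 6.56 to 9.01 CPM in the controls. Knockouts 2 and 3 also had the highest mitochondrial mRNA sums (41490 and 42290 CPM). Next came control 6 with 40620 CPM and Ppargc1a at 9.01 CPM, and knockout 4 with 39910 CPM and Ppargc1a at 7.81 CPM. Knockout 5 combined the highest Ppargc1b of the 10 libraries with the lowest mitochondrial sum (29900 CPM). A link between these levels was not tested.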

How the data were processed

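The authors deposited raw counts per Ensembl gene, 1 column per library, not normalized. The submitters' processing notes name STAR 2.5.2 and mm10. The sources used here do not name the counter, its annotation or its use of strand. Per the labels' protocols, a stranded total RNA library kit was used on 300 ng of TRIzol-extracted, DNase-treated RNA. How the kit's removal of ribosomal RNA acted on mitochondrial RNA cannot be read from these counts.

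Columns were matched to samples by title and groups came from the condition label. Symbols, coordinates and sequences came from GENCODE M21 (mm10), which named 25995 of 26040 genes. Counts were filtered with filterByExpr (minimum count 10, minimum total 15; 16446 genes kept), scaled by TMM and tested with edgeR 4.0.16 (robust quasi-likelihood, group as the only term) in R 4.3.3, with Benjamini-Hochberg adjustment over all genes and a threshold of 0.05. CPM per kilobase divides by the length of the GENCODE gene. A prior count of 2 enters log2 CPM. Nuclear relatives of mitochondrial transcripts were searched with blastn 2.17.0 at an E-value of 1e-10, and only those with a row in the count table were kept. The steps were tested on simulated data.

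Alternatives were other scalings, DESeq2 1.42.0, limma-voom (limma 3.58.1), other filters, a replicate block, an adipocyte score as covariate and libraries left out. Every mitochondrial gene in the table is named. Of each nuclear list, genes named have the smallest p, up to 4, and Tfam, Polrmt, Lrpprc, Ppargc1a and Sucnr1 were named in any case. Cep295 and Gm20594 were chosen after their values were seen. The members and lists were chosen with earlier results of these data known. Planned values for mitochondrial ribosomal and transfer RNA could not be computed from the table used here, and a planned list of nuclear mitochondrial copies had no member in it. None of the 45 pairs of libraries agreed within sampling noise by a chi-square test.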

Additional observations from a re-analysis of the deposited data

Results flagged for a closer look

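Of 92 sets of 5 libraries screened, 4 held a library whose gap to its nearest neighbour was over 0.71 of the range of the group (Dixon's 95% limit, which chance passes in about 1 in 20 groups). mt-Nd1 took 3.88% of the mitochondrial mRNA pool in control 4 against 4.26% to 4.39% in the other controls, and 4.33% in knockout 5 against 4.53% to 4.61% in the other knockouts. mt-Co3 took 12.9% of the pool in knockout 4 against 14.5% to 15.03% in the other knockouts. Hsd17b10 stood at 65.8 CPM in control 4 against 34.2 to 43.2 CPM in the other controls.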

How the results depend on the processing

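No mitochondrial mRNA passed the test under any of the 21 alternatives run, and 11 to 13 of the 13 were higher in the knockout group in each, with medians of 0.117 (library totals) to 0.238 (log2). Across them the median of all genes lay between -0.086 and 0.016, and the members' median stayed 0.154 to 0.265 above it. Signs turned for mt-Co3 and mt-Nd3: with the adipocyte marker score as covariate their log2 fold changes were 0.12 and 0.15, without control libraries 3 and 6 they were 0.065 and 0.13, and leaving out 1 library moved mt-Nd3 between -0.080 and 0.066. The count of genes called over the whole table, 10, was 213 with DESeq2, 4 with the replicate block, 6 without control libraries 3 and 6, and 3 to 18 leaving out 1 library. The mt-Co3 share difference was -3.66 percentage points with mt-Co1 left out of the denominator, a change of scale that follows from the smaller denominator. Same-numbered libraries correlated at -0.113 to 0.632 in their deviations from group means, so the numbers were not taken as pairs, and 2 of 5 knockouts correlated best with the control of their own number. The smallest adjusted p of a member was 0.349 with the replicate block and 0.188 with DESeq2.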
